A study of Mus musculus with 9 samples.

Results

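The mitosis and G2/M genes studied here were 43 genes listed by name, of which 41 were measured, among 19505 different gene symbols on 19572 probe sets with 1 symbol. Ccnb1 and Foxm1 were not analysed here. The rule is a list of gene names with no threshold on a measured value, and each gene is given by the probe set with the highest mean. The genes were chosen with earlier results of these data known, so the list was given no test of its own. All 41 had a mean above the median probe set, which lay at 7.06 on the log2 scale. The genes were followed in C1498, a mouse cell line known as an acute myeloid leukaemia, in which Zeb1, a zinc-finger transcription factor, was targeted by RNA interference.

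Each culture had received a lentivirus that carried green fluorescent protein (GFP) together with a short hairpin RNA. The hairpin was a negative control construct in the group Scr, sequence C against Zeb1 in shZeb1_C and sequence D in shZeb1_D. GFP-positive cells were isolated 2 weeks after infection in all 3 groups, so the virus, GFP and the sort were common to the control and both hairpin groups, and no untreated cells enter the comparisons. Total RNA was labelled with biotin and hybridised, with 3 arrays per group and 9 in all. The labels leave unsaid whether the 3 arrays behind each group were infected or grown apart. The p-values therefore describe only how far these arrays varied, possibly for technical reasons, and so few arrays limit the precision. All values below are log2 RMA signals on 1 probe set, or differences between them, and signals of different mitotic genes are not compared with each other, since each probe set has its own response.

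Zeb1 itself read 10.52, 10.29 and 10.56 in Scr, 10.41, 10.01 and 10.34 in shZeb1_C, and 9.56, 9.26 and 9.40 in shZeb1_D. The arrays labelled shZeb1_C overlapped those of Scr, with Zeb1 at 86.9% of Scr (limma adjusted p = 0.895), whereas those labelled shZeb1_D all lay below at 48.3% of Scr (limma adjusted p = 0.0263). The call was lost without any 1 Scr array or shZeb1_D replicate 14 or 15, with a limma adjusted p of 0.0502 to 0.157. As a rough check of the line, 4 of 13 leukocyte and myeloid markers had a mean above the median probe set, Ptprc, Csf2rb, Mpo and Fcgr3. The other 9, Spi1, Itgam, Csf1r, Cd33, Kit, Cebpa, Lyz2, Cd34 and Elane, were at or below it. Of 8 T and NK cell markers, 5 were above the median, Cd3e, Cd3g, Cd3d, Cd247 and Zap70, and Nkg7, Klrb1c and Ncr1 were not. The mean level of the 8 was 9.41 to 9.58 over the Scr arrays, 10.30 to 10.66 over shZeb1_C and 9.56 to 9.85 over shZeb1_D, and Nkg7, with means of 4.58, 10.52 and 5.19, made up most of the difference with sequence C. Without it the mean of the other 7 was 10.14 to 10.27, 10.37 to 10.52 and 10.26 to 10.42, with 5 above 0 and 2 below 0 with sequence C, from -0.94 for Cd3d to 1.51 for Klrb1c. The mean of the 13 myeloid markers was 7.21 to 7.39, 7.10 to 7.15 and 7.34 to 7.42. Fcgr3, with means of 11.87, 7.78 and 11.10, set its direction with sequence C, since without it the mean of the other 12 was 6.83 to 6.99, 7.04 to 7.10 and 7.03 to 7.09, with 11 of 12 above 0. The part of these markers in the results on mitotic genes was not tested. No B cell marker (of 4) and no epithelial marker (of 5) was above the median. It was exceeded by 2 of 3 erythroid markers, with Scr means of 8.15 for Gata1 and 7.77 for Epor. So it was by 2 of 5 fibroblast and stroma markers, Col1a1 at 7.84 and Lum at 7.17, so passing the median does not mark a lineage. Some markers above it were close to it in Scr, Mpo at 7.61, Csf2rb at 7.36 and Cd247 at 7.48. Scr means were 14.87 for Ptprc and 11.87 for Fcgr3, and 15.53 for Cd3g, 14.65 for Cd3e, 12.21 for Cd3d and 11.39 for Zap70. These markers do not single out a myeloid identity.

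Entry into mitosis is driven by Cdk1 with its A-type and B-type cyclins, which Cdc25 phosphatases switch on and which Polo and Aurora kinases help to amplify. Kinetochores then attach chromosomes to the spindle, a checkpoint holds anaphase until attachment is complete, and the anaphase-promoting complex with Ube2c destroys cyclins and securin so that cells divide. Most of these genes are transcribed late in the cycle, through CCAAT boxes and the cell cycle homology region (CHR) bound by the MuvB complex, first with the repressive DREAM complex and later with the activators B-Myb, encoded by Mybl2, and Foxm1.

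RefSeq promoters (GRCm38.p6, 250 bases before to 50 after the start) were listed for 35 of the 41 genes, as 38 sequences. The promoters of the 3 genes that passed the test below, and of Ube2c and Kif11, the next lowest with sequence C, are shown because the members that were lowest did not share the same elements. Capitals mark CCAAT or its reverse ATTGG, the CHR forms TTTGAA, its reverse TTCAAA, and TTTAAA, and the E-box form CACCTG or its reverse CAGGTG, to which Zeb1 is known to bind. The Aurka sequence lies at chr2:172370521-172370820 on the minus strand. On the plus strand lie Mybl2 at chr2:163054385-163054684, Ube2c at chr2:164769679-164769978, Kif20b at chr19:34922108-34922407 and Kif11 at chr19:37376132-37376431.
Aurka: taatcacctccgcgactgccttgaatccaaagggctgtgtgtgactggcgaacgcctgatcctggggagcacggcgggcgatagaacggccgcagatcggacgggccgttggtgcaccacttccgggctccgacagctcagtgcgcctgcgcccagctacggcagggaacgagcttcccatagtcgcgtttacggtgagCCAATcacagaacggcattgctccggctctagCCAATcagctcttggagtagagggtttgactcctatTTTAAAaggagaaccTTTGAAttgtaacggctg
Mybl2: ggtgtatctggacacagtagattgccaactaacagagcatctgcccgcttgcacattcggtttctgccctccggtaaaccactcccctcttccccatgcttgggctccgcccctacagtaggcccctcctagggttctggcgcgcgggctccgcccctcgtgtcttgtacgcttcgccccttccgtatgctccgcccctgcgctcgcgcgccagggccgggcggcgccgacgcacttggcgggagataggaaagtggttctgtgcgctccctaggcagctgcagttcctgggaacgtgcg
Kif20b: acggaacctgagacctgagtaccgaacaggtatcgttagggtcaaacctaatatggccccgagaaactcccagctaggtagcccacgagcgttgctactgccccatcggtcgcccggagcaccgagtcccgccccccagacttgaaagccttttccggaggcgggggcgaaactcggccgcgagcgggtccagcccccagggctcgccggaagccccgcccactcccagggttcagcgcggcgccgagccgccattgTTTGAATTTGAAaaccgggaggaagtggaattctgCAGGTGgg
Ube2c: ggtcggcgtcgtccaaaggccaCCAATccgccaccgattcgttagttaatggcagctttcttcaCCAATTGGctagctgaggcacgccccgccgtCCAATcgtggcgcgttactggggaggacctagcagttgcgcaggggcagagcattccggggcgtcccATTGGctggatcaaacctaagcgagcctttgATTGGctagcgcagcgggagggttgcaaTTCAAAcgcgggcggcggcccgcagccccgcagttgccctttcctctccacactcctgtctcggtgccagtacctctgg
Kif11: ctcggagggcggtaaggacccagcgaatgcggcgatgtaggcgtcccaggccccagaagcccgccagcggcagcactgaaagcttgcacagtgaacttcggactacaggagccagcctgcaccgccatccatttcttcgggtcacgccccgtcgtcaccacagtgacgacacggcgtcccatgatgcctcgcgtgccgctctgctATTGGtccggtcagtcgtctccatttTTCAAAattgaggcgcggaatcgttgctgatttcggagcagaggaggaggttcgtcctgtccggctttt

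The Aurka promoter held 2 CCAAT boxes, 1 TTTGAA and 1 TTTAAA. Ube2c held 6 matches to CCAAT, of which a pair overlapped on opposite strands, with 1 TTTGAA, and Kif11 held 1 of each. Kif20b held 2 adjoining TTTGAA and 1 CACCTG, with no CCAAT, and Mybl2 held none of the letters searched. Over all listed members, CCAAT was found in 28 of 38 promoters (73.7%), against 37.4% of 32851 RefSeq promoters of the same length, counting both strands. TTTGAA was in 76.3% against 17.9%, TTTAAA in 21.1% against 13.2%, and CCAAT together with either CHR form in 68.4% against 10.7%. CACCTG was in 10.5% of the members' promoters, those of Ect2, Kif20b and Nusap1, against 20.2% of all. These are matches of letters and do not show binding.

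With sequence C, Aurka and Kif20b fell and no member rose. With sequence D, Aurka and Mybl2 fell and no member rose. Most other members had fold changes below 0 that did not pass the test. An unadjusted p under 0.05 was met by 9 members with sequence C and 11 with D, beside 8.77% and 13.6% of all probe sets, and the fold changes of these members were all below 0. Called here means a limma adjusted p under 0.05 over all 19572 probe sets, and 0.286% of them were called lower with sequence C and 0.445% with sequence D. Calls of a higher level were made for 0.659% and 0.399%, and of either kind for 0.945% and 0.843%. Both comparisons use the same Scr arrays. In these bulk samples, fewer dividing cells and less transcript per cell cannot be told apart.

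**Figure D1:**
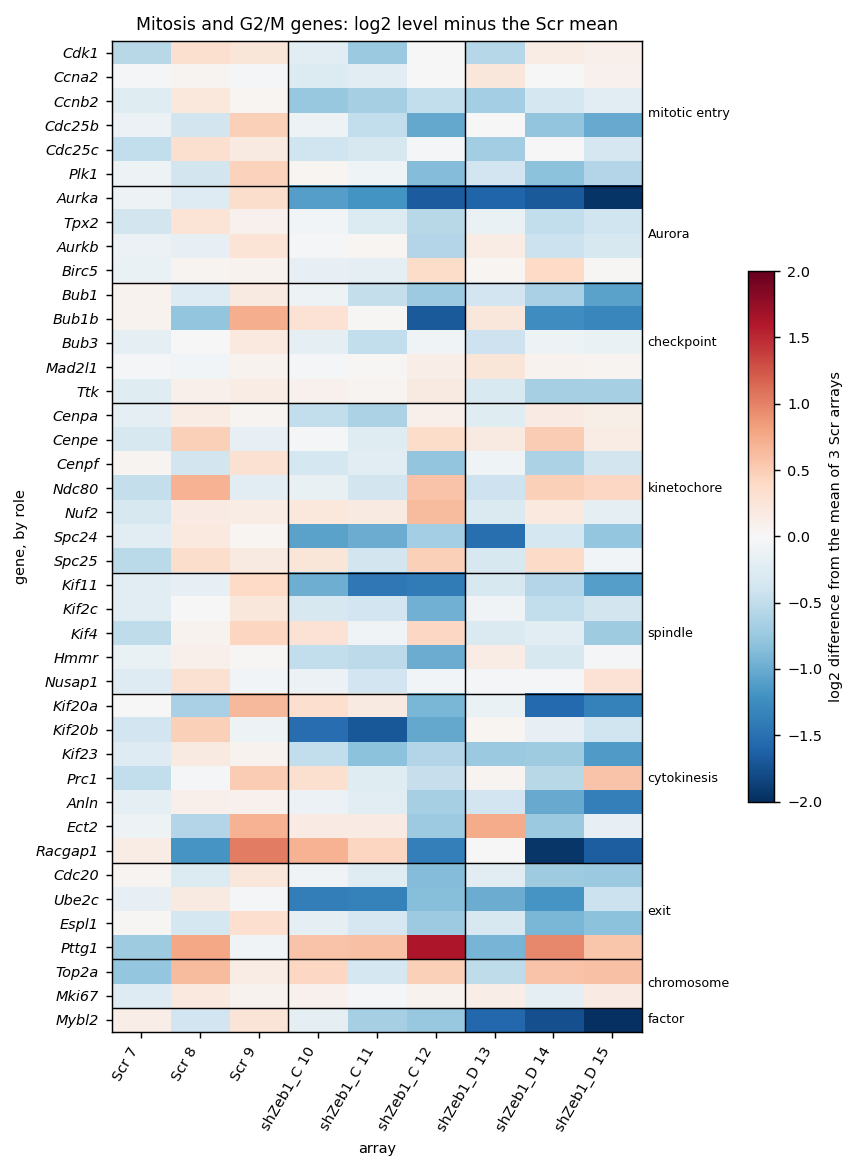
Heat map of the 41 measured mitosis and G2/M genes (vertical axis, ordered by role) on the 9 arrays (horizontal axis). Colour gives the log2 level minus the mean of the 3 Scr arrays, blue lower and red higher; Aurka is blue on all 6 hairpin arrays, Mybl2 most strongly on the 3 shZeb1_D arrays and Kif20b on the 3 shZeb1_C arrays.

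The median member was below 0 with both hairpins. With sequence C, 30 of 41 members had a fold change below 0 and their median was -0.30, beside 49.5% and 0.00 over all probe sets tested. With sequence D, 29 of 41 were below 0 and the median was -0.34, beside 43.9% and 0.04. All probe sets, here and below, include dim ones, whereas all 41 members lay above the median probe set. Among genes above that median whose neighbours, described below, were within 0.3 of 0, 52.1% and 54.8% were below 0 with C and D. Their medians were -0.02 and -0.05. Of the members with such neighbours, 21 of 32 were below 0 with C and 21 of 30 with D, with medians of -0.18 and -0.27. In 9 members every shZeb1_C array lay below every Scr array, as in 6.74% of all probe sets, and Nuf2 alone lay above on every array, as in 7.50%. In 10 members every shZeb1_D array lay below every Scr array, as in 6.65% of all, and none lay above, against 10.3% of all. In 5 genes, Aurka, Ube2c, Kif11, Spc24 and Kif23, all arrays of both hairpins lay below all Scr arrays, as in 2.13% of all probe sets, and in no member did all lie above, as in 2.58%.

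On single arrays, the median member stood at -0.20, 0.07 and 0.18 from its Scr mean in Scr, at -0.11, -0.32 and -0.59 in shZeb1_C, and at -0.28, -0.43 and -0.37 in shZeb1_D. The lowest Scr array (replicate 7) was thus below the highest shZeb1_C array (replicate 10), and the groups overlapped in this summary for sequence C but not for sequence D.

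Aurka encodes Aurora kinase A, which matures centrosomes and builds the spindle poles. It read 10.80, 10.64 and 11.25 in Scr, 9.80, 9.70 and 9.24 in shZeb1_C, and 9.29, 9.21 and 8.93 in shZeb1_D. Both hairpin groups lay below Scr with no overlap, and the highest shZeb1_D array was just above the lowest shZeb1_C array. D against C was -0.44 ± 0.22, which did not pass (limma adjusted p = 0.481). With sequence C, Aurka was reduced to 40.1% of Scr, by a log2 fold change of -1.32 ± 0.22 (SE; limma adjusted p = 0.0271). With sequence D it was reduced to 29.7%, by a log2 fold change of -1.75 ± 0.22 (limma adjusted p = 0.0110). The call with sequence C was lost without any 1 of the 6 arrays compared, with a limma adjusted p of 0.0512 to 0.112 and a log2 fold change of -1.45 to -1.14. It was also lost with an intensity trend and robust prior (limma adjusted p = 0.0530) and with only the compared groups fitted (0.0668). The call with sequence D was lost without Scr replicate 9 (limma adjusted p = 0.0662) or shZeb1_D replicate 15 (0.0720).

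Its partners did not pass the test. Tpx2, which activates Aurora A on spindle microtubules, read 13.27, 13.92 and 13.73 in Scr, 13.58, 13.36 and 13.08 in shZeb1_C, and 13.51, 13.14 and 13.24 in shZeb1_D. Its arrays overlapped between all groups, with log2 fold changes of -0.30 ± 0.21 and -0.34 ± 0.21, the latter -0.20 without Scr replicate 8 and -0.53 without Scr replicate 7. Aurkb and Birc5, the kinase and the survivin subunit of the chromosomal passenger complex, had log2 fold changes of -0.19 and 0.01 with sequence C and -0.20 and 0.15 with sequence D.

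Mybl2 encodes B-Myb, the transcription factor that turns on G2/M genes with the MuvB complex. It read 12.57, 12.06 and 12.70 in Scr, 12.25, 11.78 and 11.68 in shZeb1_C, and 10.88, 10.68 and 10.11 in shZeb1_D. All shZeb1_D arrays lay below the other 6, while 1 shZeb1_C array lay within the Scr range. With sequence D, Mybl2 was reduced to 27.0% of Scr, by a log2 fold change of -1.89 ± 0.26 (limma adjusted p = 0.0202). With sequence C it was -0.54 ± 0.26 (limma adjusted p = 0.634), and the direct difference of D from C, -1.35 ± 0.26, did not pass (limma adjusted p = 0.0554). The call with sequence D was lost without Scr replicate 7 (limma adjusted p = 0.0717), Scr replicate 9 (0.112) or shZeb1_D replicate 15 (0.0788).

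Kif20b is a kinesin that works in late mitosis and cytokinesis. It read 11.83, 12.70 and 12.12 in Scr, 10.70, 10.52 and 11.19 in shZeb1_C, and 12.25, 12.06 and 11.82 in shZeb1_D. The shZeb1_C arrays were the 3 lowest, and shZeb1_D overlapped Scr. With sequence C, Kif20b was reduced to 37.5% of Scr, by a log2 fold change of -1.41 ± 0.26 (limma adjusted p = 0.0438). With sequence D it was -0.17 ± 0.26 (limma adjusted p = 0.806). D against C was 1.24 ± 0.26, which did not pass (limma adjusted p = 0.0725). The call with sequence C was lost in 7 of the 9 fits that left out 1 array, those without any Scr array, shZeb1_C replicate 10 or 11, or shZeb1_D replicate 14 or 15 (limma adjusted p of 0.0538 to 0.158). It was also lost with an intensity trend and robust prior (0.0614) and with only the compared groups fitted (0.1001) in limma.

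**Figure D2:**
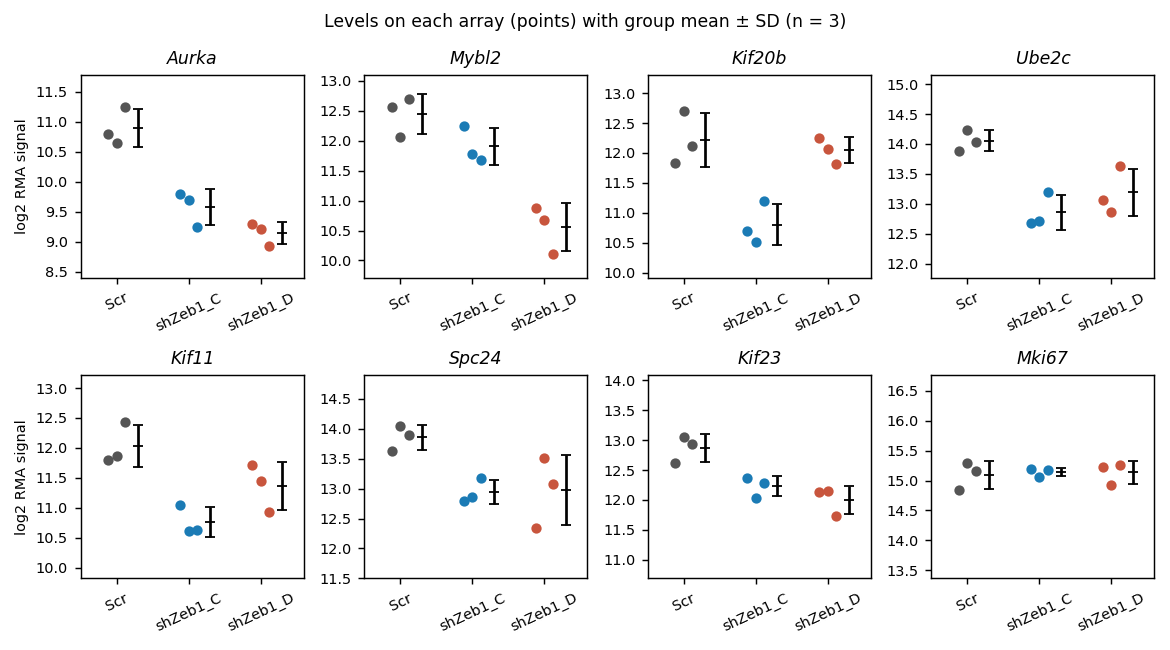
Log2 RMA signal (vertical axes, each spanning the same range) of 8 mitosis and G2/M genes in Scr, shZeb1_C and shZeb1_D (horizontal axes). Points are arrays, and bars give the group mean ± SD (n = 3); Aurka steps down from Scr to both hairpins, Mybl2 is low in shZeb1_D, Kif20b in shZeb1_C, and Mki67 overlaps in all groups.

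No gene of mitotic entry passed the limma test, and 1 had an unadjusted p under 0.05 with each hairpin. For this and the roles below, 0.945% and 0.843% of all probe sets were called with sequences C and D. An unadjusted p under 0.05 was met by 8.77% and 13.6% of all. With so few genes per role, such counts say little about a role. All 6 measured genes of mitotic entry were below 0 with sequence C and 5 of 6 with sequence D, with medians of -0.31 and -0.38. Ccnb2, the B-type cyclin that was measured, read 14.44, 14.90 and 14.72 in Scr, 13.93, 14.02 and 14.19 in shZeb1_C, and 14.01, 14.33 and 14.48 in shZeb1_D. The shZeb1_C arrays lay below all Scr arrays and 1 shZeb1_D array reached into the Scr range, with log2 fold changes of -0.64 ± 0.18 (limma adjusted p = 0.206) and -0.41 ± 0.18 (0.360). Cdc25b, a phosphatase that activates Cdk1, read 8.71, 8.46 and 9.31 in Scr, 8.73, 8.34 and 7.80 in shZeb1_C, and 8.82, 8.03 and 7.82 in shZeb1_D. Its arrays overlapped, at -0.54 ± 0.34 and -0.60 ± 0.34, and the value with D was -0.36 without Scr replicate 9 and -0.90 without shZeb1_D replicate 13. Cdk1 itself, the kinase of mitotic entry, stood at -0.32 ± 0.30 and -0.11 ± 0.30, and Plk1, the Polo kinase, at -0.30 ± 0.28 and -0.59 ± 0.28, with all shZeb1_D arrays of Plk1 below Scr.

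None of the 5 spindle checkpoint genes passed the limma test, and 0 with sequence C and 2 with D had an unadjusted p under 0.05. Bub1, a checkpoint kinase of the kinetochore, read 11.97, 11.63 and 12.08 in Scr, 11.79, 11.41 and 11.16 in shZeb1_C, and 11.51, 11.24 and 10.82 in shZeb1_D. Only the shZeb1_D arrays lay wholly below Scr, at -0.70 ± 0.23 (limma adjusted p = 0.237). Bub1b, the BubR1 subunit of the mitotic checkpoint complex, read 12.40, 11.54 and 13.05 in Scr, 12.62, 12.35 and 10.65 in shZeb1_C, and 12.55, 11.09 and 11.02 in shZeb1_D. Its spread within groups (SD of 0.76 to 1.07) was larger than its log2 fold change with sequence C, -0.46 ± 0.61, and close to that with D, -0.78 ± 0.61, which was -0.42 without Scr replicate 9 and -1.28 without shZeb1_D replicate 13. Ttk, the Mps1 kinase, was at 0.11 ± 0.17 with sequence C and -0.54 ± 0.17 with D (limma adjusted p = 0.207 for D), where all its shZeb1_D arrays were below both other groups. Mad2l1, the Mad2 inhibitor of the anaphase-promoting complex, stood at 0.04 ± 0.13 and 0.12 ± 0.13.

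Of 7 genes of the kinetochore and centromere, 3 were below 0 with each hairpin and none passed in limma, with 1 at an unadjusted p under 0.05 for each. Spc24, a subunit of the Ndc80 complex that holds microtubules, read 13.63, 14.05 and 13.89 in Scr, 12.79, 12.86 and 13.17 in shZeb1_C, and 12.35, 13.51 and 13.08 in shZeb1_D. All 6 hairpin arrays lay below Scr, at -0.92 ± 0.28 (limma adjusted p = 0.246) and -0.88 ± 0.28 (0.220). The other 3 subunits of that complex stood elsewhere. Ndc80 was at 0.02 and 0.16, Nuf2 at 0.34 and -0.09, and Spc25 at 0.12 and 0.00 with sequences C and D. Cenpf, a large protein of the outer kinetochore, read 7.69, 7.27 and 7.93 in Scr, 7.28, 7.40 and 6.84 in shZeb1_C, and 7.54, 7.00 and 7.26 in shZeb1_D, with overlap throughout. Cenpa, the centromeric histone, was at -0.34 and 0.01, and Cenpe, a kinesin of the kinetochore, at 0.03 and 0.27.

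None of the 5 spindle motors and microtubule binders passed the limma test, and 3 with sequence C and 1 with D had an unadjusted p under 0.05. Kif11, the Eg5 kinesin that pushes spindle poles apart, read 11.80, 11.87 and 12.43 in Scr, 11.05, 10.61 and 10.63 in shZeb1_C, and 11.72, 11.44 and 10.93 in shZeb1_D. All 6 hairpin arrays lay below Scr, at -1.27 ± 0.25 with sequence C (limma adjusted p = 0.0582) and -0.67 ± 0.25 with D (0.294). Hmmr, which helps to focus spindle poles, read 12.58, 12.81 and 12.73 in Scr, 12.22, 12.18 and 11.72 in shZeb1_C, and 12.86, 12.39 and 12.69 in shZeb1_D. Its shZeb1_C arrays lay below Scr and its shZeb1_D arrays overlapped Scr, at -0.67 ± 0.19 (limma adjusted p = 0.205) and -0.06 ± 0.19. Kif2c, a kinesin that depolymerises microtubules, was at -0.55 ± 0.22 with all shZeb1_C arrays below Scr, and at -0.31 ± 0.22 with D.

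Among genes of the central spindle and cytokinesis, all 7 were below 0 with sequence C and 6 of 7 with D, and Kif20b was the only call. Kif23, the kinesin of the centralspindlin complex, read 12.61, 13.05 and 12.94 in Scr, 12.37, 12.04 and 12.28 in shZeb1_C, and 12.13, 12.15 and 11.73 in shZeb1_D, with all hairpin arrays below Scr. It stood at -0.64 ± 0.18 (limma adjusted p = 0.221) and -0.86 ± 0.18 (0.0842), and Anln, the anillin scaffold of the contractile ring, at -0.33 ± 0.26 and -0.92 ± 0.26 (0.173 for D). Racgap1, the partner of Kif23 in centralspindlin, read 12.16, 10.84 and 13.04 in Scr, 12.71, 12.45 and 10.65 in shZeb1_C, and 12.02, 10.07 and 10.37 in shZeb1_D. It had the widest spread within groups of the 41 genes, a pooled SD of 1.09, and its fold changes, -0.08 ± 0.73 and -1.19 ± 0.73, did not pass. The value with D was -0.68 without Scr replicate 9 and -1.79 without shZeb1_D replicate 13, and the array sets described below, as a covariate, gave -0.58. Kif20a, another kinesin of the central spindle, read 11.01, 10.37 and 11.67 in Scr, 11.36, 11.19 and 10.11 in shZeb1_C, and 10.88, 9.46 and 9.66 in shZeb1_D. Scr replicate 8, shZeb1_C replicate 12 and shZeb1_D replicates 14 and 15 were low for Racgap1, Bub1b and Kif20a alike.

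None of the 4 genes of anaphase and mitotic exit passed the limma test, and 1 with sequence C and 2 with D had an unadjusted p under 0.05. Ube2c, the ubiquitin-conjugating enzyme of the anaphase-promoting complex, read 13.89, 14.24 and 14.04 in Scr, 12.68, 12.71 and 13.20 in shZeb1_C, and 13.07, 12.87 and 13.63 in shZeb1_D. All 6 hairpin arrays lay below Scr. Its log2 fold changes were -1.19 ± 0.23 with sequence C (limma adjusted p = 0.0531) and -0.87 ± 0.23 with D (0.150). Pttg1, the securin that guards separase, read 11.30, 12.79 and 11.94 in Scr, 12.58, 12.60 and 13.62 in shZeb1_C, and 11.08, 12.97 and 12.57 in shZeb1_D. Its arrays overlapped between groups, at 0.92 ± 0.54 and 0.20 ± 0.54, the highest fold change of any member with sequence C. Without 1 array the value with C ran from 0.57 (without Scr replicate 7) to 1.31 (without Scr replicate 8). It passed in 1 setting, with the array sets described below, which were taken from the same values, as a covariate (limma adjusted p = 0.0361). Cdc20, which activates the complex, stood at -0.40 ± 0.25 and -0.56 ± 0.25, and Espl1, the separase, at -0.42 and -0.69.

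Top2a, the topoisomerase that untangles sister chromatids, read 12.94, 14.35 and 13.87 in Scr, 14.13, 13.37 and 14.19 in shZeb1_C, and 13.21, 14.29 and 14.31 in shZeb1_D. Mki67, which encodes the Ki-67 antigen of cycling cells, read 14.84, 15.29 and 15.16 in Scr, 15.19, 15.06 and 15.17 in shZeb1_C, and 15.23, 14.92 and 15.26 in shZeb1_D. Both overlapped in all groups. Mki67 stood at 0.04 ± 0.17 with each hairpin, and Top2a at 0.18 ± 0.42 and 0.22 ± 0.42.

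Compared directly, D against C called no member with limma, beside 0.542% of all probe sets called lower, 0.307% higher and 0.848% either way. An unadjusted p under 0.05 was met by 7 members, beside 11.7% of all. Ttk, Kif4, Anln and Mybl2 were the lower ones with D and Kif11, Hmmr and Kif20b the higher ones. The median member differed by -0.00, and 21 of 41 were below 0, beside 44.3% of all. In 3 members all shZeb1_D arrays lay below all shZeb1_C arrays, beside 6.26% of all, and in 4 above, beside 8.99%. Over the mean of both hairpins, Aurka fell by 1.54 ± 0.19 (limma adjusted p = 0.0112) and Mybl2 by 1.21 ± 0.22 (0.0498), the 2 calls among 41 members, beside 0.363% of all probe sets called lower, 0.465% higher and 0.828% either way. Of the 41, 32 were below 0, beside 45.8% of all, with a median of -0.32, and 12 had an unadjusted p under 0.05, beside 11.0%. The Aurka call was lost without Scr replicate 9 (limma adjusted p = 0.0770). The Mybl2 call was lost without any 1 array other than shZeb1_D replicate 13, with a limma adjusted p of 0.0605 to 0.293, and also with array medians subtracted (0.0553), an intensity trend and robust prior (0.0674) or unnamed probe sets included (0.0522). For Mybl2 this mean joins -0.54 with sequence C, which was not called, and -1.89 with D, and the hairpin arrays overlapped Scr. Zeb1 itself did not pass over both hairpins, at -0.63 ± 0.14 (limma adjusted p = 0.104).

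The called members lay among neighbours that were low too, while Racgap1 and Kif20a, the next lowest with sequence D, had neighbours with medians of -0.18 each. Neither of these 2 passed with D (limma adjusted p = 0.513 and 0.394). Both also differed within groups between the array sets described below, by -1.83 and -1.15. For each gene the 25 named genes on either side that were above the median probe set, in the RefSeq gene order of the same assembly, gave a median fold change of its neighbours, 50 genes in all except for Espl1, which had 44. With sequence C the neighbours of 9 members had medians below the limit of -0.3, those of Aurka, Ube2c and Mybl2 on chromosome 2, Kif11 and Kif20b on chromosome 19, and Spc24, Kif23, Ccnb2 and Anln on chromosome 9. These 9 members all had fold changes below 0, with a median of -0.92, and they held both calls. The other 32 had a median of -0.18, 21 of them below 0, and no call. With sequence D the same genes without Kif11 and Kif20b had low neighbours, 7 in all, with a median of -0.88 and both calls. Of the remainder, 30 had neighbours within 0.3 of 0, with a median of -0.27, 21 below 0 and no call. Ccna2, Cenpa, Cenpe and Ect2 had neighbours above 0.3 and a median of 0.06.

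**Figure D3:**
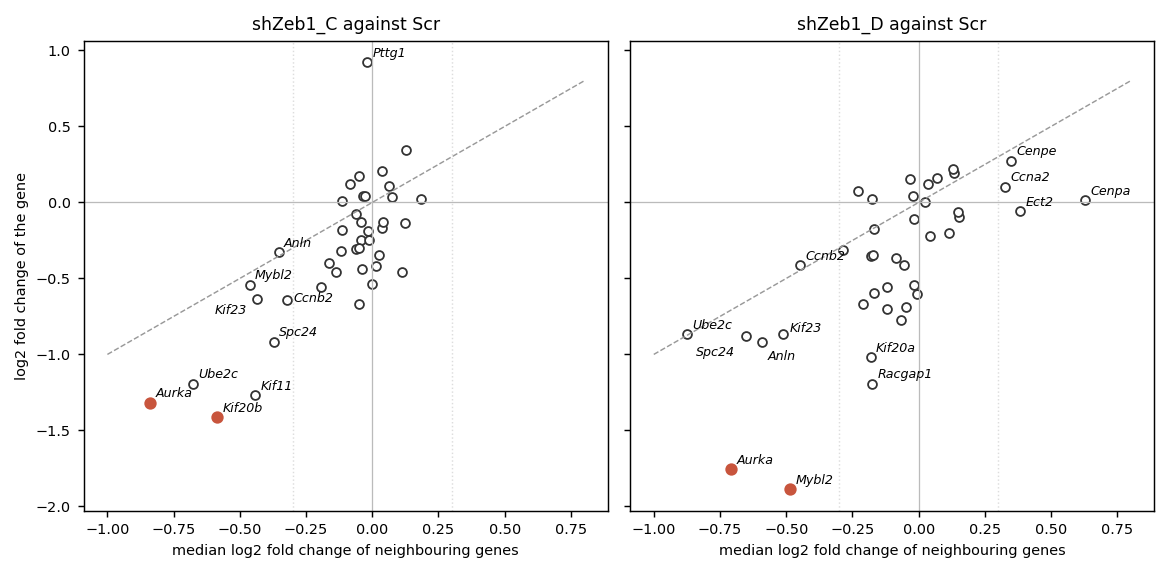
Log2 fold change of each of 41 mitosis and G2/M genes (vertical axis) against the median log2 fold change of its neighbours in gene order (horizontal axis), for each hairpin against Scr. Filled points passed limma at an adjusted p under 0.05, the dashed line marks equal values and dotted lines mark -0.3 and 0.3; every filled point lies left of -0.3 and below the dashed line.

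The same was seen among genes of any kind. Among 9864 genes above the median probe set, 6.96% had low neighbours with sequence C, and 85.0% of these were below 0, with a median of -0.49 and 3.93% called lower. Where neighbours were within 0.3 the median was -0.02, 52.1% were below 0 and 0.275% were called lower. With sequence D the shares called lower were 5.14% of genes with low neighbours and 0.512% of genes with neighbours within 0.3, and the medians were -0.45 and -0.05. The members within 0.3 thus had medians of -0.18 and -0.27 beside -0.02 and -0.05 for genes at large, a description with no test. The neighbours were read from the same arrays as the members.

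Around Aurka, 47 of 50 neighbours were below 0 with sequence C and 45 of 50 with D, with medians of -0.84 and -0.71. Aurka lay -0.48 and -1.05 from these medians, and 3 and 4 neighbours were lower still. Of the genes next to it in this order, Cstf1 stood at -1.28 and -1.64, and Pfdn4 at -0.91 and -0.62. Called members were picked by the same fold changes, so a place below the neighbours' median was partly set by that choice. Around Kif20b, 40 of 50 neighbours were below 0 with sequence C and the median was -0.58, whereas with D, where Kif20b itself was not called, 32 of 50 were below 0 and the median was -0.17. With sequence C, 3 neighbours were lower than Kif20b. Mybl2 with D lay -1.40 from its neighbours' median of -0.49, the farthest of the calls, while Ube2c with D lay 0.01 from its neighbours' median of -0.87. Members close together share neighbours, 29 of 50 for Ube2c and Mybl2, 16 for Aurka and Ube2c, 40 for Kif11 and Kif20b and 40 for Spc24 and Anln, so these are not independent points. The part of the neighbourhood in each member's fold change was not tested.

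**Figure D4:**
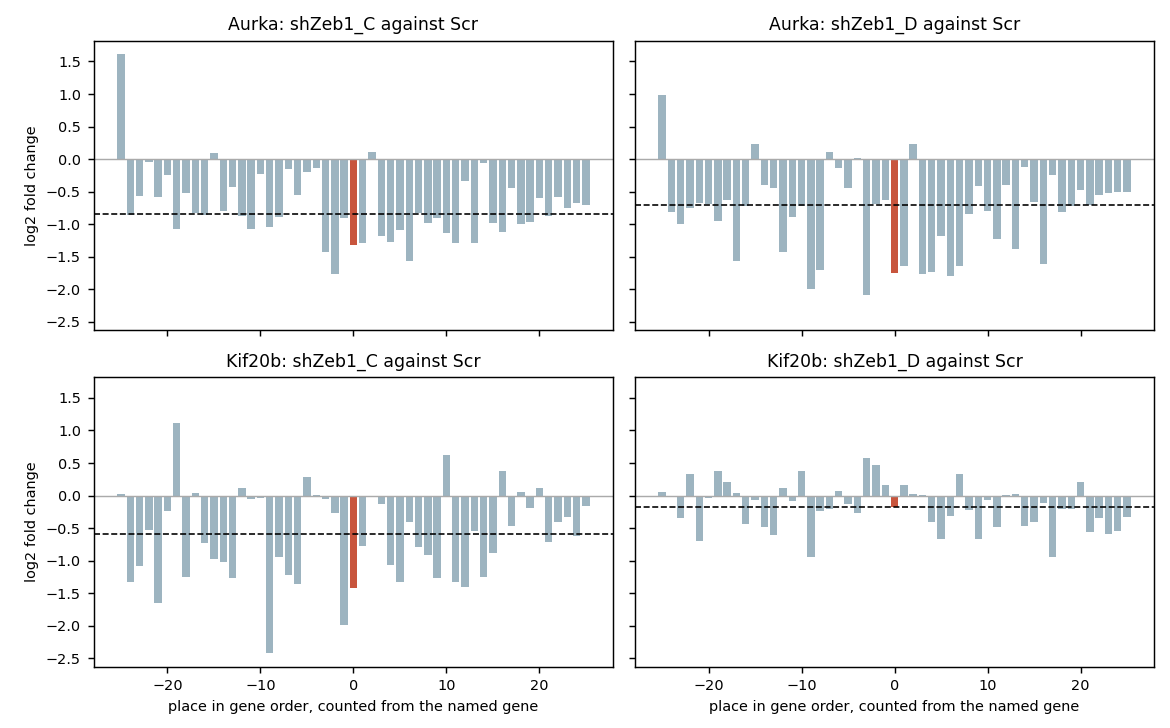
Log2 fold change (vertical axes) of Aurka and of Kif20b (red bars) and of the 25 genes above the median probe set on each side (grey bars), in gene order (horizontal axes), for each hairpin against Scr. Dashed lines are the medians of the 50 neighbours, -0.84 and -0.71 around Aurka and -0.58 and -0.17 around Kif20b.

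Fold changes were also set beside the promoter elements. The 23 genes with CCAAT and a CHR form had medians of -0.32 with sequence C and -0.41 with D, and 17 of 23 were below 0 with each. The 12 with a listed promoter that lacked the pair, Mybl2 and Kif20b among them, had medians of -0.26 and -0.13, and 7 of 12 were below 0 with each. This difference was not tested.

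Members also varied within groups, some lower and some higher on the same arrays. A principal component of the deviations from group means, the first over all probe sets, took 57.9% of their variance and divided the arrays into 5 (Scr replicates 7 and 9, shZeb1_C replicates 10 and 11, shZeb1_D replicate 13) and 4 (the others). The groups were split unevenly, with shZeb1_D replicates 14 and 15 among the 4 but only replicate 8 of Scr and 12 of shZeb1_C. A difference between the sets thus also entered the fold changes that involve D, and its part in them was not tested. Across these sets Racgap1 differed by -1.83 within groups, Bub1b by -1.50, Kif20a by -1.15 and Ect2 by -0.99, while Pttg1 differed by 1.30, Ndc80 by 0.91 and Top2a by 0.82. In all, 14 of 41 members (34.1%) differed by more than 0.5 in size, 8 lower and 6 higher, beside 22.5% of all probe sets. The sets were taken from the values themselves, so no test was made. The median SD within groups was 0.32 for members and 0.26 for all probe sets, from 0.0863 for Mad2l1 upwards.

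**Figure D5:**
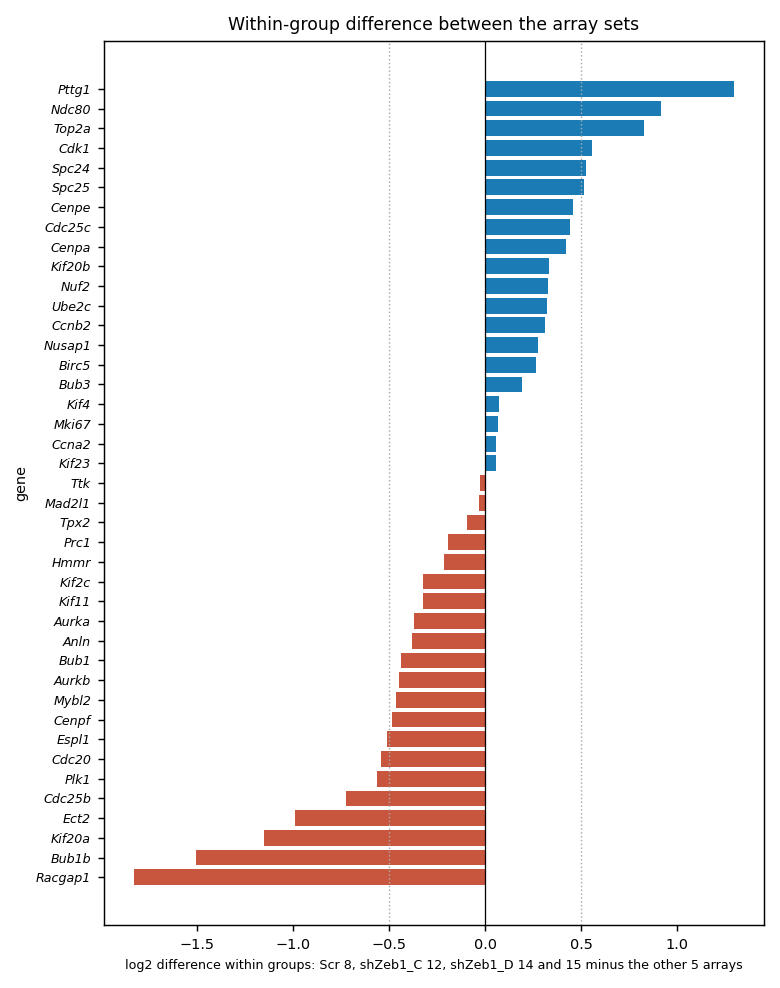
Within-group log2 difference (horizontal axis) of each of 41 mitosis and G2/M genes (vertical axis) between the 4 arrays Scr 8, shZeb1_C 12, shZeb1_D 14 and 15 and the other 5 arrays. Dotted lines mark -0.5 and 0.5; Racgap1, Bub1b and Kif20a lie farthest below 0 and Pttg1, Ndc80 and Top2a farthest above.

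The wider cell cycle programme was followed with further lists. Of 36 other spindle and cytokinesis genes, limma called 1 with sequence C and 0 with D, beside 0.945% and 0.843% of all probe sets. An unadjusted p under 0.05 was met by 2 and 11 of them, beside 8.77% and 13.6% of all, and the list medians were -0.07 and -0.22. Cep55, which recruits the abscission machinery to the midbody, read 11.35, 11.71 and 11.57 in Scr, 10.34, 10.08 and 10.21 in shZeb1_C, and 10.93, 10.97 and 11.30 in shZeb1_D. It fell by 1.33 ± 0.16 with sequence C (limma adjusted p = 0.00884, lost at 0.0562 without Scr replicate 9), and its neighbours on chromosome 19 had a median of -0.41. Cep55 is itself among the neighbours of Kif20b and lies close to Kif11, so its call and that of Kif20b are not independent points. Over both hairpins it fell by 0.91 ± 0.14 (limma adjusted p = 0.0255), a call lost without any Scr array, shZeb1_C replicate 10 or 11 or shZeb1_D replicate 14 (limma adjusted p of 0.0528 to 0.175) or with an intensity trend and robust prior (0.0848).

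E2f7, an atypical E2F that represses E2F targets, read 7.48, 7.52 and 7.65 in Scr, 8.25, 8.71 and 9.31 in shZeb1_C, and 8.65, 9.02 and 8.73 in shZeb1_D. All hairpin arrays were above Scr, and over both hairpins it rose by 1.23 ± 0.22 (limma adjusted p = 0.0388). This was the only call among 20 regulators of the DREAM, E2F and MuvB group, beside 0.828% of all probe sets. With single hairpins limma called none of the 20, beside 0.945% and 0.843% of all. An unadjusted p under 0.05 was met by 4 with sequence C and 5 with D, beside 8.77% and 13.6% of all probe sets. That call was lost without any Scr array, shZeb1_C replicate 11 or shZeb1_D replicate 14 or 15, with a limma adjusted p of 0.0799 to 0.185, and with quantile normalization (0.0576). Ccne1, the cyclin E1 of G1/S, read 14.67, 14.31 and 14.59 in Scr, 14.73, 15.08 and 15.06 in shZeb1_C, and 13.88, 14.08 and 13.55 in shZeb1_D. It was lower in D than in C by a log2 difference of -1.12 ± 0.19 (limma adjusted p = 0.0306), and with neither hairpin was it called against Scr. The difference was lost as a call without any 1 array other than Scr replicate 8 and shZeb1_D replicate 14 (limma adjusted p of 0.0538 to 0.125), and with only the compared groups fitted (0.0924).

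With either hairpin against Scr, limma called none of the 47 measured G1 and S phase genes, 35 other kinetochore genes, 19 genes of the anaphase-promoting complex, 21 of condensin and cohesin, 21 of the G2 checkpoint and other mitotic kinases, and 16 cyclin-dependent kinase inhibitors and p53 arrest genes. Of all probe sets, 0.945% were called with sequence C and 0.843% with D, so lists this short can hold no call at that share. Of the 47 G1 and S phase genes, 3 had an unadjusted p under 0.05 with sequence C and 12 with D, with list medians of -0.12 and -0.23. Condensin and cohesin genes had medians of -0.17 and -0.30, with 3 and 2 at an unadjusted p under 0.05. The medians of the kinetochore list were -0.07 and -0.10, those of the anaphase-promoting complex -0.08 and 0.02, and those of the arrest genes -0.09 and 0.02. Unadjusted p under 0.05 was met by 6 and 3, 1 and 3, and 2 and 3 genes of these lists, and by 3 and 3 of the G2 checkpoint list, beside 8.77% and 13.6% of all probe sets.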

How the data were processed

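The members and gene lists were chosen with earlier results of these data known. Per the submitters' processing notes, the authors used RMA and the Transcriptome Analysis Console, for which no versions are given. The genome build and array design are not given in the sources used here. The values the authors deposited are other than a usual unit: linear RMA signals written without their decimal point, with the digits of 2 to the power of a log2 value. Each of the 199854 values was returned to log2 by placing the decimal point so that its log2 fell on a multiple of 0.01 within 1e-06 steps, and 0 values failed. The planned tests assumed log2 values and were run on these. Recovered values ran from 3.26 to 17.44, array medians from 6.97 to 7.16, and pairs of arrays correlated across probe sets with Pearson's r of 0.978 to 0.995 inside a group and 0.968 to 0.989 across groups.

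The platform annotation gave 1 gene symbol for 19572 of 22206 probe sets and several for 0. The 2634 without a symbol here stayed out of the tests. Each named probe set was fitted with limma 3.58.1 in R 4.3.3 (lmFit, contrasts.fit, eBayes), with a mean per group over all 9 arrays and Benjamini-Hochberg adjustment within each of 4 comparisons. The fit was checked on simulated arrays with independent noise on each probe set, so the variation shared between real probe sets was not simulated. A log2 change of 0.5 was found in 0.909% of cases, of 1 in 37.3% and of 2 in 78.9%. Among unchanged probe sets 0.0279% were called. A gene that did not pass may therefore still have changed. For 3 arrays against 3, an exact two-sided permutation test cannot go below 0.1, so single genes rest on the fit across all probe sets. Values per array are given for members called in any comparison and for those with the largest and second largest change of each role, and for up to 4 called genes of each other list. Kif20a and Kif23 were added after their values were seen. Motifs were sought on both strands of RefSeq promoters of assembly GRCm38.p6. Alternatives changed the normalization, the prior on variances, weights per array, the treatment of dim, unnamed and repeated probe sets, the arrays in the fit, array sets, the threshold, neighbouring genes and each array left out.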

Additional observations from a re-analysis of the deposited data

Results flagged for a closer look

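Ccne1, the G1/S cyclin, differed between the hairpins by a log2 difference of -1.12 in D against C. It drew attention because the difference itself passed the test (limma adjusted p = 0.0306), with all shZeb1_D arrays below all shZeb1_C arrays. The median fold change of its neighbours in that comparison was 0.05. No mitosis or G2/M gene passed the same test.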

How the results depend on the processing

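Where 2 members were called for each hairpin against Scr and for both hairpins together, and 0 for D against C, the counts moved as follows. With array weights they were 6 for sequence C, 7 for D, 4 for D against C and 7 for both hairpins together. With the array sets as a covariate, which were taken from the same values, they were 7, 5, 3 and 8, with Pttg1 (0.92, limma adjusted p = 0.0361) a higher call among the 7, and over all genes the calls were 875, 772, 700 and 804 in place of 185, 165, 166 and 162. With an intensity trend and robust prior the count was 0 for C and 1 for both together. With only the compared groups fitted it was 0 for C. At an adjusted p under 0.10 it was 4 for C, 2 for D against C and 4 for both together. Over probe sets above the median level, and with quantile normalization, D against C had 1, and with unnamed probe sets included both together had 1. Leaving out members whose neighbours had shifted left 0 calls for C, D and both together, because the called members are among those left out, and moved the median for C to -0.18. Without 1 array, the counts ran from 0 to 3 for C, 0 to 2 for D, 0 to 1 for D against C and 0 to 2 for both together.

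The median member with D was -0.22 with quantile normalization and ran from -0.44 to -0.21 without 1 array, that with C from -0.38 to -0.19, and that over both hairpins from -0.45 to -0.21. The median for D against C, near 0, turned to 0.0296 with quantile normalization and 4.72e-04 with array weights, and ran from -0.0433 to 0.0567 without 1 array. Top2a with D turned to -0.0583 with array sets as a covariate, and ran from -0.17 (without Scr replicate 7) to 0.58. Mki67 with C turned to -0.0267 with array medians subtracted, and ran from -0.085 (without Scr replicate 7) to 0.14. The Zeb1 call with D, at -1.05, was lost with an intensity trend and robust prior (limma adjusted p = 0.0796) and with only the compared groups fitted (0.0626). Without 1 array it ran from -1.13 to -0.98, and was lost without any Scr array or shZeb1_D replicate 14 or 15 (up to 0.157). The cause of these changes was not tested.

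Over all genes, array weights gave 572, 1076, 833 and 639 calls, an adjusted p under 0.10 gave 316, 300, 313 and 291, and only the compared groups gave 125, 68 and 81 for the pairwise comparisons. Without 1 array they ran from 43 to 214, 14 to 213, 49 to 162 and 16 to 219. No paired analysis was possible because the groups share no replicate numbers.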
